A study of Mus musculus with 2 samples.

Results

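High and intermediate Nras deep hepatocytes were the 2 upper classes of liver cells when deeply sequenced hepatocytes of RAS-injected mice were ordered by how much Nras RNA they held. A barcode counted as a deep hepatocyte where it held at least 10000 gene UMIs (unique RNA molecules), under 20% mitochondrial UMIs, at least 1% of UMIs from Alb, Apoa1, Apoa2, Ttr and Fgb together, and under 0.5% from the class II genes H2-Aa, H2-Ab1, H2-Eb1 and Cd74. Of 13151 barcodes 2235 met this rule. The members were then selected on their own Nras UMIs as CPM, the usual scaling to the total of gene UMIs: cells with at least 2500 Nras CPM formed the high class (157 cells) and cells from 800 to under 2500 CPM the intermediate class (207 cells), together 364 cells. The low class, from 200 to under 800 CPM, held 333 cells, and the baseline class, below that, 1538. The classes were thus set by a measured value, and neither Nras nor mVenus is given as a result.

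The cells came from 3 BL6 mice (C57BL/6 in the study's methods), 6 to 8 weeks old when injected, whose livers were taken 6 days after hydrodynamic tail-vein injection (HDTV), a rapid injection of plasmid DNA that reaches part of the hepatocytes. All mice carried a transposon with the strong CAGGS promoter that drives mVenus, a yellow fluorescent protein, and NRAS, together with the SB13 transposase that inserts it. The insert was oncogenic NRAS(G12V) or the non-oncogenic control NRAS(G12V/D38A), which has a further change in the effector loop. The pool of 3 hashtagged, mVenus-sorted livers was run together, and neither class was a genotype. The deposited table gives hashtag 1 to the D38A mouse and hashtags 2 and 3 to G12V mice, whereas by the methods of the study hashtag 3 marks the D38A mouse and the other two tags the G12V mice. Under the deposited pairing hashtag 1, one of only 2 mice in the test, is thus the control, and its high and intermediate cells carry the control construct. High and intermediate cells were therefore compared within each mouse, called mouse 1, 2 or 3 by its hashtag, and no direction below depends on the pairing, although the construct behind each mouse's values does.

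RAS proteins are membrane switches that, in the active state, start the RAF, MEK and ERK kinase cascade, and ERK then drives immediate early transcription factors and its own inhibitors. A strong RAS signal in primary cells is known for oncogene-induced senescence, a lasting arrest that comes with CDK inhibitors and with a secretome of cytokines, chemokines and proteases called the SASP. Hepatocytes in their normal state make most plasma proteins and carry the urea cycle, bile acid transport and drug metabolism.

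Hashtag 1 gave 26 intermediate and 25 high cells, hashtag 2 gave 108 and 82, and hashtag 3 gave only 1 and 2, too few to enter a test. A further 69 intermediate and 45 high cells had no called hashtag. These uncalled cells came from the same animals and are not a further mouse. Another 3 and 3 cells carried several hashtags. The mouse labels depend on the hashtag rule. Under the fixed rule described below, 69 of these hashtag 2 cells kept their tag and 121 had none. For hashtag 1, 49 cells kept it and 2 had none, and 40 uncalled cells were given hashtag 1. Between hashtags 1 and 2, 0 cells moved. Values of mouse 2 thus rest largely on cells that the fixed rule left without a tag. Where pairs of levels are given below, the intermediate value comes before the high one, and 3 pairs in a row belong to mouse 1, mouse 2 and uncalled cells. Median depth was 59003 UMIs per intermediate and 53769 UMIs per high cell, and the median mitochondrial share was 8.30% and 7.99%. Nras was at 1406 CPM over the intermediate and 5921 CPM over the high cells, 4.21-fold apart, against 3.41-fold between intermediate and low cells. The boundary did not fall in a gap, since the nearest cells lay at 2477 and 2612 CPM, and 32 intermediate cells were at 2000 CPM or more and 24 high cells under 3000 CPM.

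The hepatocyte label was checked with 10 markers that the rule did not use, all of which were detected. They summed to 26886 CPM in intermediate and 22257 CPM in high cells. Markers of other liver cells were scarce with 3 exceptions. Endothelial markers (10 genes) summed to 24.6 and 11.97 CPM, lymphocyte markers (12 genes) to 3.14 and 3.99 CPM, neutrophil markers (7 genes) to 0.959 and 0.822 CPM and erythroid markers (5 genes) to 0.349 and 0.704 CPM. The dendritic list reached 1962 and 1910 CPM through Ly6d, the cholangiocyte list 14840 and 16749 CPM through Spp1, and the stellate list 432 and 589 CPM. Macrophage markers (12 genes) summed to 10.1 CPM in intermediate and 26.4 CPM in high cells, with 11.96 and 38.8 CPM in mouse 2, 7.30 and 3.22 CPM in mouse 1 and 4.37 and 9.88 CPM in uncalled cells. Counts of called genes without cells rich in markers of other types are given below. The part of the macrophage markers alone was not tested.

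To ask what changes as Nras goes from intermediate to high, UMIs were summed per mouse and class and compared over 9934 genes. At an adjusted p of 0.05, 4 genes fell (0.0403% of those tested) and 0 rose (0%). They were Ugt2b5, Cyp2e1, Hspa1b and Hpgd. At an unadjusted p of 0.05, 452 genes were lower and 230 higher in high cells. DESeq2 on the same sums called 28 genes, 25 lower and 3 higher, and the 4 edgeR genes were among them. All 28 had the same direction in both mice. The count of 4 is fragile, since 0 genes passed with the mouse left out of the model or with a minimum mean of 10 CPM, and 151 with uncalled cells as a further block. The step from low to intermediate Nras, in the same model, passed the threshold for 113 genes higher (1.14%) and 131 lower (1.32%), and the whole span from baseline to high for 1430 higher (14.4%) and 1485 lower (14.9%). Intermediate cells are part of both steps, so these counts are not independent.

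Ugt2b5, a glucuronosyltransferase that conjugates steroids and drugs (ENSMUSG00000054630, GRCm38 chr5:87124960-87140318, minus strand), was at 365 CPM in the intermediate and 219.5 CPM in the high class of mouse 1, at 369.6 and 209.5 CPM in mouse 2 and at 338 and 277 CPM in uncalled cells. The high class was thus the lower one in each set of cells. The fitted log2 fold change was −0.80 (SE 0.10, edgeR adjusted p = 0.0312). Reads of the Ugt2b family can be shared between near-identical members, so the gene's own count is uncertain. In 482 deep barcodes grouped as other cell types Ugt2b5 stood at 75.1 CPM. The cell types of this group were not checked with markers. The group held the keratin Krt18 at 1851 CPM against 1135 CPM in baseline cells, but the apolipoprotein Apoe at 4467 against 27038 CPM. Whether its hepatocyte RNA was free RNA or made by its own cells was not tested.

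Hpgd, which inactivates prostaglandins (ENSMUSG00000031613, chr8:56294585-56321043, plus strand), was at 48.0 and 21.7 CPM in mouse 1, at 42.4 and 20.8 CPM in mouse 2 and at 46.6 and 15.1 CPM in uncalled cells. Each high value was under each intermediate value, and the log2 fold change was −1.08 (SE 0.16, adjusted p = 0.0425). Hspa1b, an inducible HSP70 chaperone (ENSMUSG00000090877, chr17:34956436-34959238, minus strand), was at 115 and 53.1 CPM in mouse 1, at 88.3 and 42.2 CPM in mouse 2 and at 252 and 86.9 CPM in uncalled cells. It too was lower in high cells of every set (−1.09, SE 0.16, adjusted p = 0.0425). Its near-identical neighbour Hspa1a, which can share its reads, was at 55.3 and 17.7 CPM, 56.7 and 39.4 CPM, and 115 and 61.9 CPM in the same sets and did not pass (−0.75, SE 0.41, adjusted p = 0.790). In the other deep barcodes Hspa1b was at 757 CPM and Hpgd at 63.4 CPM, so both genes are also found outside these hepatocytes.

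Cyp2e1, a pericentral P450 that oxidises ethanol and paracetamol (ENSMUSG00000025479, chr7:140763739-140774987, plus strand), was at 17.6 and 5.63 CPM in mouse 1, 32.8 and 6.73 CPM in mouse 2 and 3.64 and 3.12 CPM in uncalled cells. The fold change was −2.20 (SE 0.29, adjusted p = 0.0312) and rests on 267 UMIs in intermediate and 49 UMIs in high cells, of which the richest cell held 25.5% and 18.4%. The other deep barcodes held 28.8 CPM. With each cell thinned to 10000 UMIs, 10.6% of intermediate cells (exact binomial 95% interval 6.78 to 15.6) and 6.37% of high cells (3.096 to 11.4) had a Cyp2e1 UMI, against 17.4% of the other barcodes (14.1 to 21.1). Both shares were under that of the other barcodes, whose Cyp2e1 RNA may be free or their own. At this level RNA made by the cells and free RNA thus cannot be told apart. Over the baseline, low, intermediate and high classes Cyp2e1 stood at 137, 44.0, 23.3 and 5.75 CPM.

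**Figure D1:**
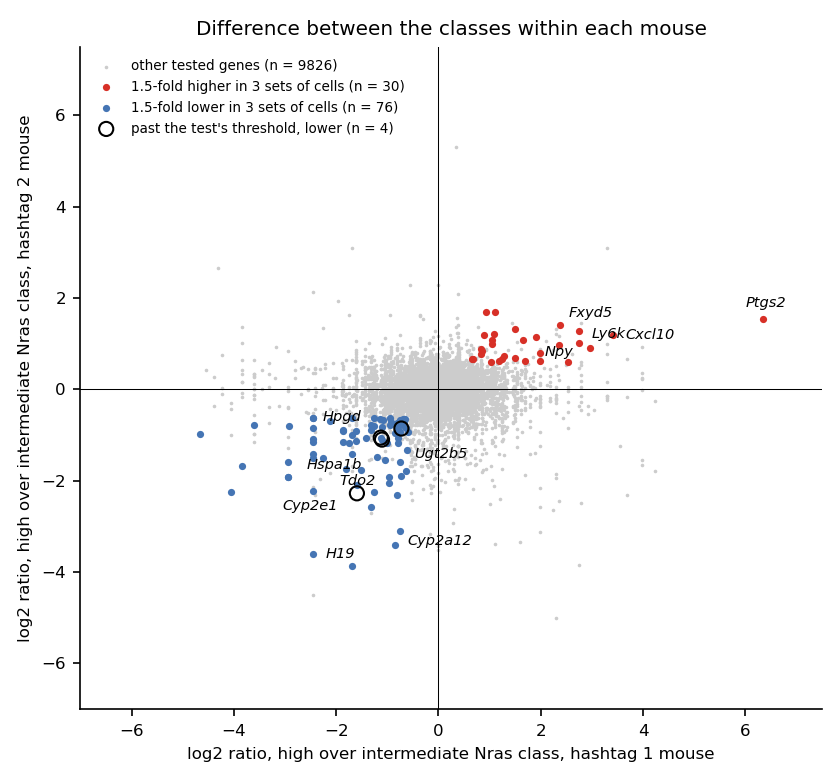
Log2 ratio of high over intermediate Nras cells for 9934 genes, in the hashtag 1 mouse (x axis) against the hashtag 2 mouse (y axis). Rings mark the 4 genes past the test's threshold, all in the lower left quadrant, red and blue points the 30 and 76 genes at least 1.5-fold higher or lower in both mice and in uncalled cells, and labels name a few of them.

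With 2 mice, 252 genes were at least 1.5-fold apart in the same direction in both (82 higher and 170 lower in high cells) and 214 in opposite directions. A rule of size, chosen after the values were seen and given with no test, asked for 1.5-fold in the same direction in mouse 1, mouse 2 and uncalled cells. It took 30 genes higher (0.302%) and 76 lower (0.765%). With at least 20 CPM in the higher class 8 remained higher (0.0805%) and 20 lower (0.201%). The higher ones with a gene name were Ptgs2, Cxcl10, Crct1, Npy, Fxyd5, Nupr1 and Ly6k. Among the lower ones were the fibrinogen chains Fga and Fgg, the amino acid enzymes Tdo2, Gnmt and Pipox, the nuclear receptor Nr0b2, the imprinted RNA H19, and Hspa1b and Hpgd. The rule of size needs only direction and fold, so its genes can rest on few UMIs or few cells. In mouse 1, H19 had 2 intermediate and 0 high UMIs, Ly6k 2 and 12, Crct1 3 and 13, and Ptgs2 1 and 88. A single cell held 39.8% of the intermediate UMIs of H19 and 67.4% of those of Crct1.

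RAS pathway members other than Nras differed little between the classes, with a slight lean to the high class. Of 21 tested components 15 had a higher and 6 a lower estimate, by the sign of the fitted log2 fold change, with a median of 0.11, and 0 passed the test. In both mice 9 were higher and 1 was lower. The median over all 9934 genes was −0.01, with 4831 estimates higher and 5103 lower. Hras was at 151 CPM in intermediate and 165 CPM in high cells of mouse 1, 155 and 162 CPM in mouse 2 and 145 and 155 CPM in uncalled cells. The ERK kinase Mapk3 was at 54.1 and 74.0 CPM, 53.4 and 58.8 CPM, and 52.8 and 73.9 CPM (0.23, SE 0.14, adjusted p = 0.823). Neither gene passed (Hras 0.06, SE 0.13, adjusted p = 0.99).

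Genes that report ERK output were not called either. Of 27 tested, 10 had a higher and 17 a lower estimate (median −0.06), and 12 were lower in both mice against 4 higher in both. Fos, an immediate early AP-1 subunit, was at 584 and 532 CPM in mouse 1, 572 and 456 CPM in mouse 2 and 607 and 494 CPM in uncalled cells. Its partner Jun was at 691 and 604 CPM, 580.2 and 489.8 CPM, and 895 and 687 CPM. Both were under the intermediate level in every set of high cells, but neither passed the test (Fos −0.25, SE 0.15, adjusted p = 0.832; Jun −0.24, SE 0.15, adjusted p = 0.845). Junb was also lower in each set, at 562 and 514 CPM, 501 and 456 CPM, and 773 and 605 CPM. Jund, the list's gene of highest CPM, went opposite ways, at 749 and 860 CPM in mouse 1 and 794 and 652 CPM in mouse 2. Dusp6, an ERK phosphatase that is itself an ERK target, was at 147 and 113 CPM in mouse 1 and at 78.2 and 82.6 CPM in mouse 2, opposite directions. Fosl1, a later AP-1 subunit, was at 22.5 and 29.8 CPM, 27.6 and 34.5 CPM, and 31.0 and 45.3 CPM (0.32, SE 0.25, adjusted p = 0.900). From baseline to high Nras 12 of the 27 passed the test as higher and 0 as lower, against 14.4% and 14.9% of all genes tested. From low to intermediate 2 passed as higher, against 1.14% of all genes.

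Ligands of the EGF receptor pointed mostly to the high class. Of 11 tested ligands and receptors 10 had a higher estimate (median 0.29), 7 were higher in both mice and 1 lower, and 0 passed. Hbegf, a membrane-anchored EGF receptor ligand, was at 196 and 265 CPM in mouse 1, 174 and 272 CPM in mouse 2 and 156 and 240.3 CPM in uncalled cells. The ligand Btc was at 68.7 and 78.8 CPM, 56.7 and 97.0 CPM, and 57.2 and 92.6 CPM, and Ereg, another ligand, at 14.0 and 60.3 CPM, 18.9 and 41.0 CPM, and 23.3 and 30.2 CPM. All 3 ligands were higher in high cells of each set, with log2 fold changes of 0.53 (SE 0.16, adjusted p = 0.386) for Hbegf, 0.54 (SE 0.15, adjusted p = 0.273) for Btc and 1.44 (SE 0.30, adjusted p = 0.111) for Ereg. Areg, also a ligand, went opposite ways, at 43.8 and 33.8 CPM in mouse 1 and 8.71 and 28.3 CPM in mouse 2. The receptor Egfr was at 59.0 and 63.5 CPM, 43.8 and 46.1 CPM, and 55.0 and 55.1 CPM. Fgfr2, a receptor for fibroblast growth factors, was the only member with a lower estimate, at 13.4 and 7.24 CPM, 9.89 and 5.15 CPM, and 21.1 and 7.28 CPM (−0.97, SE 0.28, adjusted p = 0.332).

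Senescence genes had small fitted differences between the classes. Of 20 tested 12 had a higher and 8 a lower estimate (median 0.04), and 0 passed the test. From baseline to high Nras 10 of the 20 passed as higher and 3 as lower, against 14.4% and 14.9% of all genes tested. The lower count is thus near the share over all genes. Cdkn2b, which encodes the CDK4 and CDK6 inhibitor p15, was at 365 and 381 CPM in mouse 1, 343 and 382 CPM in mouse 2 and 345 and 411 CPM in uncalled cells. Cdkn1a, which encodes p21, was at 131 and 159 CPM, 121 and 142 CPM, and 168 and 231 CPM. Cdkn1a and Cdkn2b were thus slightly higher in high cells of each set, and neither passed the test (0.24, SE 0.13, adjusted p = 0.811 for Cdkn1a and 0.09, SE 0.11, adjusted p = 0.956 for Cdkn2b). Cdkn2a, the p16 and ARF locus, was at 5.32 CPM over all intermediate and 6.93 CPM over all high cells. The 2 mice went opposite ways on few UMIs. Mouse 1 was at 8.51 and 4.02 CPM (14 and 5 UMIs) and mouse 2 at 5.31 and 7.13 CPM (36 and 36 UMIs). The fitted log2 fold change was 0.03 (SE 0.70). The oncofetal chromatin factor Hmga2 was at 221 and 177 CPM in mouse 1 and 228 and 296 CPM in mouse 2, opposite directions. Abundant members of the list were also split between the mice. Gdf15 was at 1351 and 1402 CPM in mouse 1 and 1171 and 1040 CPM in mouse 2. Igfbp3 was at 706 and 640 CPM and 530 and 687 CPM, and Btg2 at 276 and 318 CPM and 368 and 299 CPM.

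SASP cytokines and chemokines had 15 higher and 8 lower estimates among 23 tested (median 0.18), with 8 higher and 1 lower in both mice, and 0 passed. Ptgs2, the inducible cyclooxygenase that makes prostaglandins, was at 0.608 and 70.8 CPM in mouse 1, 8.27 and 25.2 CPM in mouse 2 and 2.55 and 47.9 CPM in uncalled cells. It was higher in high cells of all 3 sets but missed the threshold (2.47, SE 0.48, adjusted p = 0.0885), and 1 high cell held 20.5% of its UMIs in that class. The hashtag 1 value for intermediate cells rests on 1 UMI. Cxcl3, a neutrophil chemokine, was at 165 and 222 CPM, 71.7 and 138 CPM, and 101 and 273 CPM (0.68, SE 0.31, adjusted p = 0.717). Cxcl1, also a neutrophil chemokine, had no shared direction, at 300 and 194 CPM, 142 and 192 CPM, and 408 and 330 CPM (−0.11, SE 0.27). Cxcl9, a lymphocyte chemokine, was at 220 and 444 CPM, 154 and 155 CPM, and 39.0 and 306 CPM (0.37, SE 0.35). Cxcl10, a lymphocyte chemokine, was at 6.69 and 73.2 CPM, 50.3 and 119 CPM, and 107 and 491 CPM, with 44.6% of the UMIs of high cells in 1 cell. Ccl2, a monocyte chemokine, was at 243 and 285 CPM, 123 and 147 CPM, and 431 and 410.4 CPM. Spp1, or osteopontin, the most abundant of the list, went from 20611 to 13271 CPM in mouse 1 and from 13245 to 18832 CPM in mouse 2, so its mean difference near 0 (−0.05, SE 0.19) hides opposite directions. Among matrix and protease genes 11 of 14 had a higher estimate (median 0.21) and 0 passed. The urokinase receptor Plaur was at 57.8 and 91.7 CPM, 84.0 and 121 CPM, and 54.7 and 129.5 CPM (0.55, SE 0.14, adjusted p = 0.192).

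Cytoskeletal, annexin and S100 genes pointed mostly to the high class. Of 39 tested 34 had a higher estimate (median 0.25), 30 were higher in both mice and 1 lower in both, and 12 reached an unadjusted p under 0.05, all higher, yet 0 passed the adjusted threshold. For all genes tested, 2592 were higher and 2710 lower in both mice. From low to intermediate 14 of the 39 passed as higher, against 1.14% of all genes, and from baseline to high 34, against 14.4%. S100a11, a calcium-binding protein, was at 901 and 1340.4 CPM in mouse 1, 882 and 1214 CPM in mouse 2 and 964 and 1308 CPM in uncalled cells (0.50, SE 0.09, edgeR adjusted p = 0.0806). Anxa2, a membrane-binding annexin, was at 879 and 1153 CPM, 882 and 1214 CPM, and 904 and 1301 CPM (0.41, SE 0.09, edgeR adjusted p = 0.147). The keratin Krt18 was at 3029 and 3676 CPM, 3121 and 4045 CPM, and 2979 and 3904 CPM (0.31, SE 0.08, adjusted p = 0.226). In none of these genes did a high value overlap an intermediate one. The intermediate filament Vim was less even, at 1131 and 2590.0 CPM, 1564 and 1729 CPM, and 855 and 2248 CPM (0.67, SE 0.24, adjusted p = 0.548).

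Squamous envelope genes, which build the outer layer of stratified epithelia, had 6 higher and 4 lower estimates among 10 tested (median 0.44), and 0 passed. The list's median was 0.36 in mouse 1 and 0.30 in mouse 2 but −0.08 in uncalled cells. Sprr1a, a cornified envelope precursor, was at 873 and 1368 CPM in mouse 1, 838 and 1271 CPM in mouse 2 and 924 and 2202 CPM in uncalled cells (0.61, SE 0.11, edgeR adjusted p = 0.0806). Involucrin, Ivl, was at 24.9 and 49.1 CPM, 37.2 and 51.1 CPM, and 27.7 and 65.0 CPM (0.59, SE 0.24, adjusted p = 0.653). Each high value of both genes was above each intermediate value. Gjb2, a gap junction protein, pointed the other way, at 15.2 and 6.43 CPM, 14.5 and 5.15 CPM, and 11.7 and 7.28 CPM (−1.46, SE 0.26, adjusted p = 0.0806).

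Sprr1a, S100a11 and Anxa2 were the 3 genes that DESeq2 called higher (adjusted p = 0.00261, 0.00105 and 0.0185), while edgeR called none of them, and their upstream sequences are shown for that reason, chosen after the values were seen. The 250 bases before each RefSeq gene start (GRCm38.p6) are written 5′ to 3′ along the gene's strand, for Sprr1a chr3:92485882-92486131 on the minus strand, for S100a11 chr3:93520246-93520495 and for Anxa2 chr9:69453433-69453682 on the plus strand. Capitals mark matches to TGANTCA, the AP-1 letters bound by FOS and JUN proteins, and to CACGTG, an E-box, searched on both strands.
Sprr1a: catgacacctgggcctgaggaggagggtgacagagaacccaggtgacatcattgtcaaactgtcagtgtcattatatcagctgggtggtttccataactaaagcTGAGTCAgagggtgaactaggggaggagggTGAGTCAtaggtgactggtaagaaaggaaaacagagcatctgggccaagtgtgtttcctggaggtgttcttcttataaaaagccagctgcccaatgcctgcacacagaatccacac
S100a11: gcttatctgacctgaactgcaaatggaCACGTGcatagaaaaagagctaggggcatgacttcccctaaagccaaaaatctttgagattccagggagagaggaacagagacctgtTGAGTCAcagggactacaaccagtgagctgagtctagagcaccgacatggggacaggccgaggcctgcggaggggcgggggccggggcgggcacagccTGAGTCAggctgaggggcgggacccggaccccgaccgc
Anxa2: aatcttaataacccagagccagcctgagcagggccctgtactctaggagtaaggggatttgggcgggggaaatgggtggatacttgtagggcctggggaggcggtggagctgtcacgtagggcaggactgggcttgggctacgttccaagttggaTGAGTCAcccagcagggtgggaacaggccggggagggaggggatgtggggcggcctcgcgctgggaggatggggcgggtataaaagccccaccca
The AP-1 letters began at −146 and −116 in Sprr1a, at −136 and −38 in S100a11 and at −95 in Anxa2, where −1 is the base before the gene start, and the E-box of S100a11 at −223. Over windows of 250 bases before to 50 after the start, 5.11% of the 10059 promoters of tested genes held the AP-1 letters and 10.7% the E-box (7842 of 9934 genes matched), against 7.81% and 7.15% of all 32851 promoters. The ETS letters (CCGGAAGT) were in 8.77% of the promoters of tested genes. Genes taken by the rule of size held the AP-1 letters in 1 of 21 promoters of those higher (4.76%) and in 6 of 65 of those lower (9.23%). For the E-box these were 5 of 21 (23.8%) and 8 of 65 (12.3%), and for ETS 3 of 21 (14.3%) and 0 of 65. These shares were not tested. The promoters of the 4 called genes held 0 AP-1, E-box or ETS matches, too few promoters to set against these shares. A match is a stretch of letters and not a binding site.

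**Figure D2:**
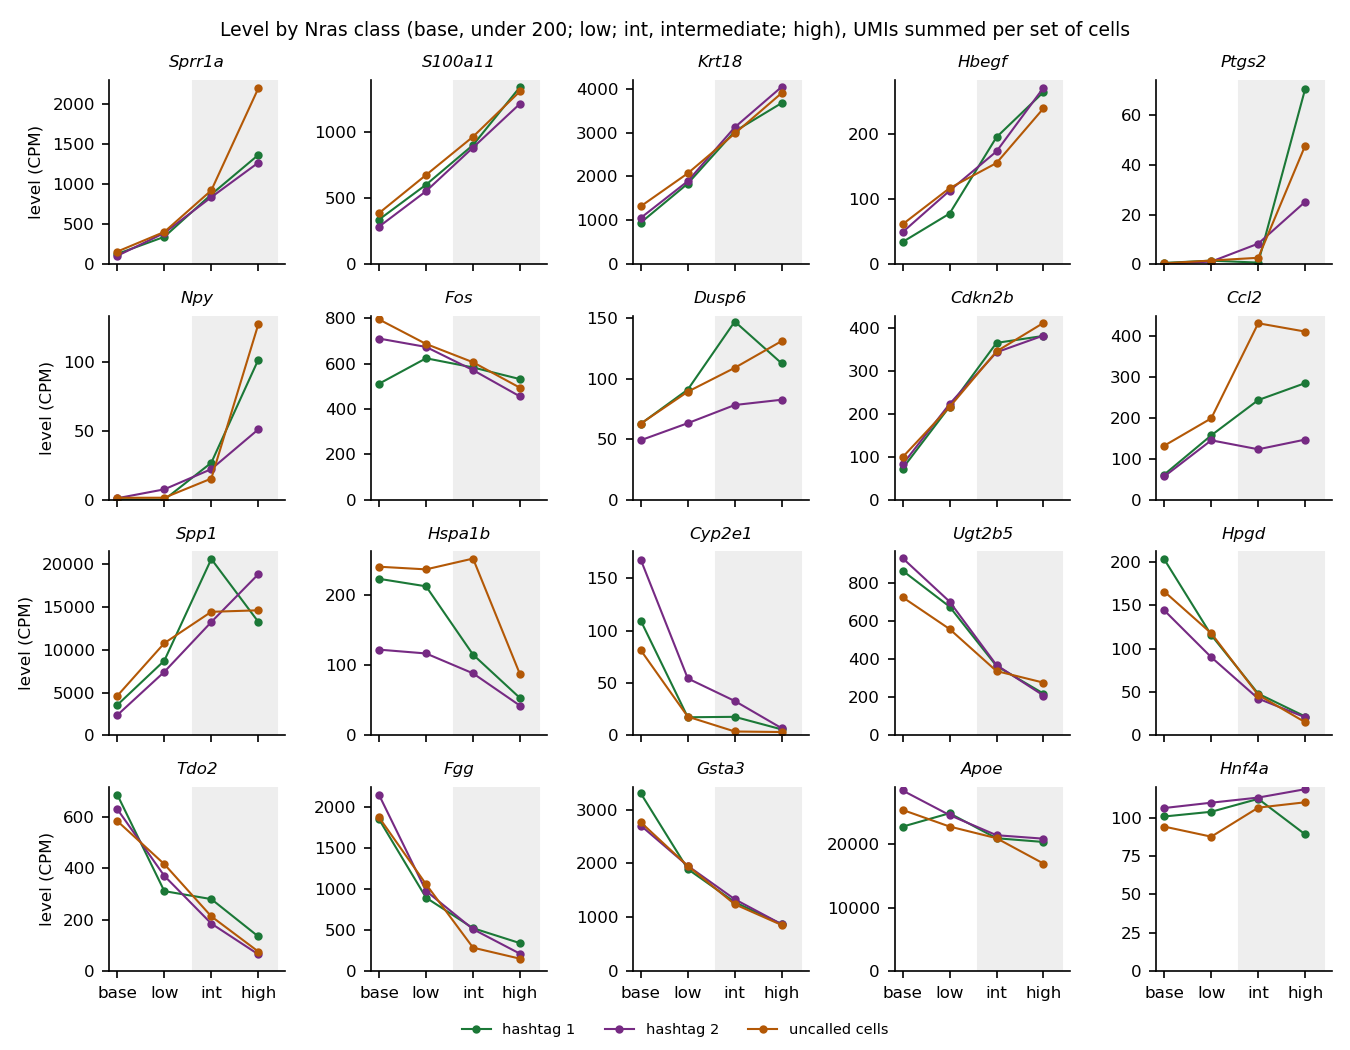
Level in CPM of 20 genes across the baseline, low, intermediate and high Nras classes, for UMIs summed over hashtag 1, hashtag 2 and uncalled cells, with the compared classes shaded. Sprr1a and S100a11 are above the intermediate level in each high point, Ugt2b5, Hpgd, Fgg and Tdo2 are below it, and Spp1 and Dusp6 cross between the mice.

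Fitted estimates for genes of hepatocyte function were mostly lower in high cells, but several list medians were near 0 in mouse 1 and well under it in mouse 2, a contrast between the mice that was not tested. Of all these lists only Cyp2e1 passed the test. Of 39 secreted plasma proteins tested 37 had a lower estimate (median −0.46), 22 were lower and 0 higher in both mice, and 0 passed the test, against 16 at an unadjusted p under 0.05. The list's median was −0.02 in mouse 1, −0.53 in mouse 2 and −0.63 in uncalled cells. The fibrinogen gamma chain Fgg was at 522 and 339 CPM in mouse 1, 510.1 and 209.9 CPM in mouse 2 and 284 and 149 CPM in uncalled cells (−0.96, SE 0.18, adjusted p = 0.0824). Haptoglobin, Hp, was at 3210.5 and 2237 CPM, 2919.6 and 2082 CPM, and 2690.4 and 1309 CPM (−0.52, SE 0.10, adjusted p = 0.0806). Their levels in the other deep barcodes were 67.0 CPM for Fgg and 323 CPM for Hp, below both classes. Ahsg, or fetuin-A, was level in mouse 1 (3910.5 and 3885 CPM) and lower in mouse 2 (4655 and 3315 CPM). Among the more abundant secreted proteins Rbp4, the retinol carrier, was at 11647 and 11914 CPM, 12085 and 12109 CPM, and 10701 and 9852 CPM, and Apoe, an apolipoprotein, at 20982 and 20392 CPM, 21459.8 and 20913 CPM, and 20989.6 and 16976 CPM.

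Cytochrome P450 genes had 16 lower and 4 higher estimates among 20 tested (median −1.03), with 1 called, Cyp2e1. Their median was 0.08 in mouse 1, −1.52 in mouse 2 and −0.33 in uncalled cells, and 6 were lower and 2 higher in both mice. Cyp2c70, which makes muricholic acid in mice, showed this split, at 34.7 and 41.8 CPM in mouse 1, 58.4 and 17.6 CPM in mouse 2 and 29.9 and 16.6 CPM in uncalled cells (−1.04, SE 0.36, adjusted p = 0.506). It was at 21.3 CPM in the other deep barcodes, and some of these levels are at or under that. Cyp2d10, the list's gene of highest CPM, was at 199 and 203 CPM, 230 and 173 CPM, and 236 and 147 CPM. Cyp2a5 was nearly level in both mice, at 54.1 and 54.7 CPM and 60.4 and 62.8 CPM, but at 21.1 and 243 CPM in uncalled cells. Of 13 transporters for bile acids and drugs 10 had a lower estimate (median −0.58, with −0.02 in mouse 1 and −1.10 in mouse 2) and 0 passed. Slc10a1, the main bile acid importer, was at 4.26 and 1.61 CPM, 6.49 and 1.19 CPM, and 3.64 and 0.520 CPM (−2.26, SE 0.39, adjusted p = 0.0806), against 4.58 CPM in the other barcodes. The transporters of highest CPM differed much less. Over all cells Abcc2 was at 183 and 161 CPM, Abcc3 at 73.5 and 77.2 CPM, Abcc4 at 47.3 and 50.1 CPM and Abcb4 at 28.6 and 28.1 CPM. The whole list summed to 407 and 364 CPM.

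Urea cycle and amino acid genes had 17 lower estimates among 18 tested (median −0.56), 13 lower and 1 higher in both mice, and 0 passed, against 9 lower at an unadjusted p under 0.05. Tdo2, which opens the tryptophan ring, was at 279.8 and 134 CPM in mouse 1, 184 and 64.6 CPM in mouse 2 and 212 and 75.4 CPM in uncalled cells (−1.32, SE 0.24, adjusted p = 0.0806). Each high value was under each intermediate value, while the other deep barcodes held 119 CPM. Cps1, the first enzyme of the urea cycle, was at 40.7 and 36.2 CPM in mouse 1 but 39.0 and 9.11 CPM in mouse 2 (−1.31, SE 0.46, adjusted p = 0.528). Fatty acid oxidation and peroxisomal genes had 17 lower estimates among 18 (median −0.36), 8 lower and 0 higher in both mice, and 0 passed. The thiolase Acaa2 was at 195 and 124 CPM, 157 and 118 CPM, and 173 and 131 CPM (−0.54, SE 0.12, adjusted p = 0.147). Fabp1, the liver fatty acid binder, went from 565 to 918 CPM in mouse 1 and from 954 to 310.2 CPM in mouse 2, opposite directions, at 1963 CPM in the other barcodes.

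The transcription factors that keep hepatocyte identity had 21 lower and 3 higher estimates among 24 tested (median −0.27), 12 lower and 2 higher in both mice, and 0 passed. Hnf4a, a central regulator of the hepatocyte programme, was at 113 and 89.3 CPM in mouse 1, 113 and 119 CPM in mouse 2 and 107 and 110.3 CPM in uncalled cells, with no shared direction. Nr0b2, the bile acid-induced repressor SHP, was at 80.3 and 41.0 CPM, 65.5 and 39.0 CPM, and 103 and 37.5 CPM (−0.88, SE 0.18, adjusted p = 0.111), lower in high cells of each set. Glucose and glycogen genes had 11 higher and 13 lower estimates among 24 (median −0.09). The glycolytic Gapdh was at 922 and 864 CPM, 764 and 868 CPM, and 992 and 972 CPM. Cholesterol and fatty acid synthesis had 7 higher and 14 lower estimates among 21 (median −0.05), none at an unadjusted p under 0.05. Gsta3, a glutathione transferase, missed the threshold by least among the listed genes, at 1279.6 and 871 CPM, 1334 and 867 CPM, and 1241 and 854 CPM (−0.61, SE 0.09, adjusted p = 0.0557), on a list of 20 NRF2 and glutathione genes with 6 higher and 14 lower estimates.

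**Figure D3:**
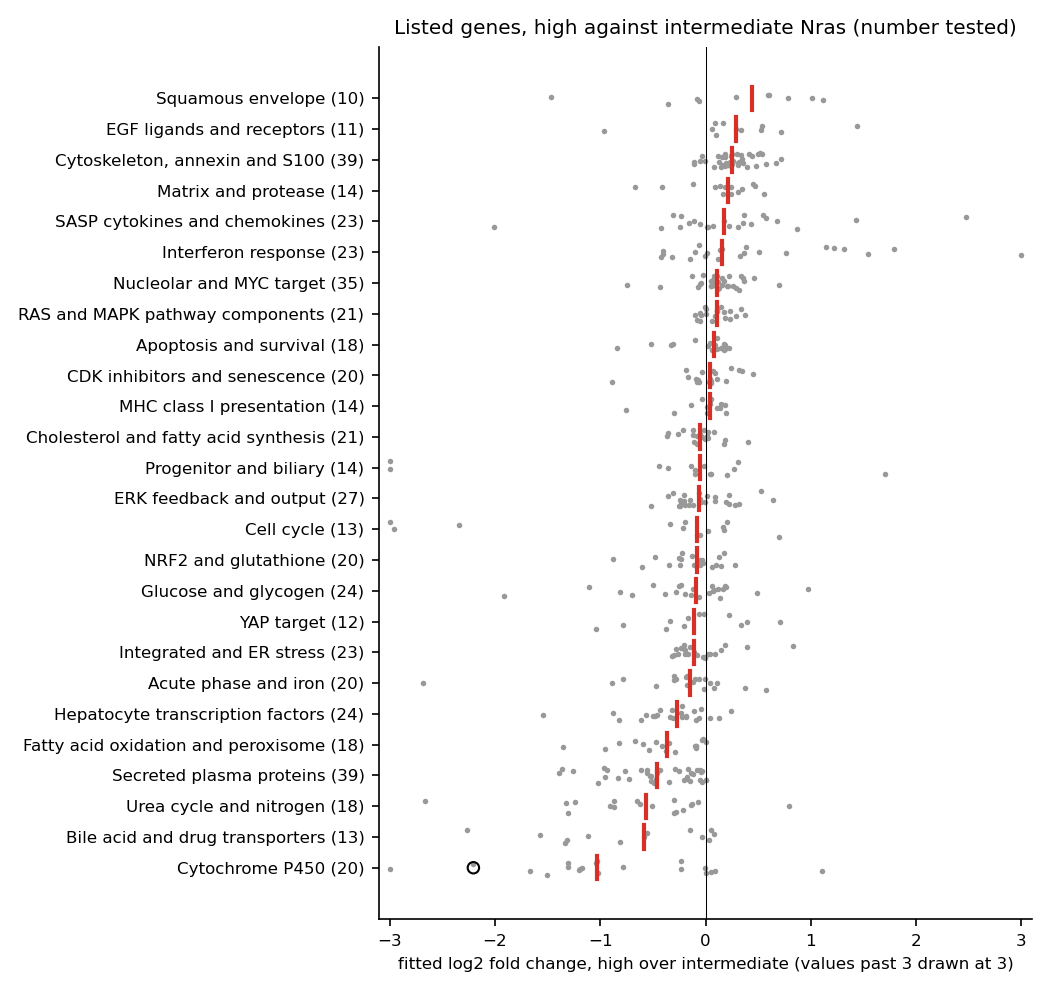
Fitted log2 fold change of high over intermediate Nras cells for each tested gene (grey points) of 26 lists, with the list median as a red bar and the number tested in brackets. The median is highest for the squamous (0.44) and EGF (0.29) lists and lowest for the P450 list (−1.03), where the ring marks Cyp2e1, the 1 listed gene past the threshold.

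Progenitor and biliary genes had 6 higher and 8 lower estimates among 14 tested (median −0.06), and 0 passed. Tm4sf4, a tetraspanin-like membrane protein, was at 3716 and 4046 CPM in mouse 1, 3131 and 3879 CPM in mouse 2 and 2906 and 3456 CPM in uncalled cells. Afp, the fetal albumin relative, was at 195 and 330.5 CPM, 241 and 217 CPM, and 515 and 251 CPM, with no shared direction. Dlk1, a fetal growth regulator, was at 36.6 and 1.39 CPM in mouse 2 but at 12.4 and 17.2 CPM in uncalled cells, and its fitted fold change (−4.62, SE 0.74, adjusted p = 0.0628) rests almost wholly on mouse 2. Mouse 1 held only 2 and 0 Dlk1 UMIs. The richest cell held 44.2% of all intermediate and 80% of all high Dlk1 UMIs. Of the 16 genes of the study's own panel, 12 could be tested, with 8 higher and 4 lower estimates and 0 called. The 4 others, Il1a, Il1b, Nes and Gpc3, stayed below the count filter, each at 1.48 CPM or less in either class. Growth-related nucleolar and MYC target genes had 28 higher and 7 lower estimates among 35 (median 0.11), 15 higher and 2 lower in both mice, and 0 passed.

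To see whether higher sums came from more cells, each cell was thinned to 10000 UMIs. For Ereg, 10.1% of intermediate cells (6.39 to 15.1) and 27.4% of high cells (20.6 to 35.1) held a UMI, against 2.49% of the other deep barcodes, whose median depth was 12487 UMIs. Sprr1a was found in 73.9% (67.4 to 79.8) and 84.1% (77.4 to 89.4), against 22.0%, and Hbegf in 63.8% (56.8 to 70.3) and 77.1% (69.7 to 83.4), against 13.7%. The intervals cover counting error only and treat cells of a mouse as independent, so they do not stand for a test between classes. Ptgs2 was found in 5.31% (2.68 to 9.31) and 11.5% (6.94 to 17.5), against 3.11%. Nupr1, a stress-induced chromatin protein, was found in 5.80% (3.03 to 9.91) and 15.3% (10.0 to 21.9), against 4.77%. Npy, a neuropeptide, was found in 5.31% (2.68 to 9.31) and 10.8% (6.44 to 16.8), against 1.66%, so at this depth Ptgs2, Nupr1 and Npy were each detected in a minority of high cells. Cxcl10 was in 9.66% and 10.8% of cells, against 26.3% of the other barcodes, which can hold cells that make it themselves. For Tdo2 the shares were 47.8% (40.9 to 54.9) and 28.0% (21.2 to 35.7), against 31.7% of the other barcodes.

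**Figure D4:**
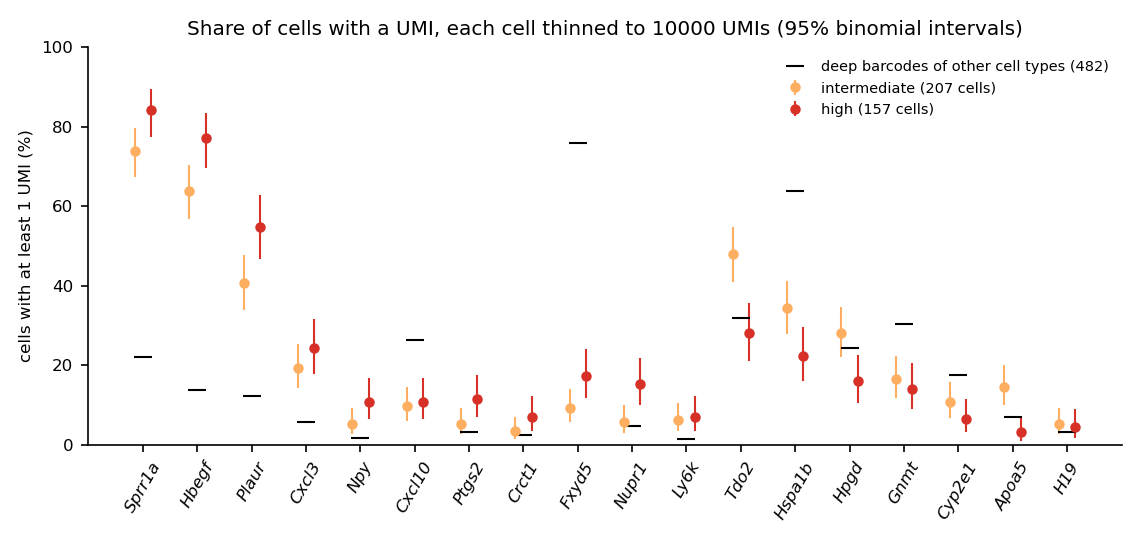
Share of intermediate (207) and high (157) Nras cells with at least 1 UMI of each gene after thinning each cell to 10000 UMIs, with exact binomial 95% intervals. Short black lines give the share in 482 deep barcodes grouped as other cell types, which lies above both classes for Cxcl10, Fxyd5, Hspa1b, Gnmt and Cyp2e1.

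A final comparison asked whether the upper step differed from the one below it, by testing (high minus intermediate) minus (intermediate minus low) in the same model. By edgeR 0 of 9934 genes passed and 324 had an unadjusted p under 0.05. DESeq2 also called 0 genes, with 100 at an unadjusted p under 0.05. The steps were not equal in Nras and shared the intermediate cells.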

How the data were processed

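The authors aligned 10x Genomics 3′ v3 reads to mm10 and deposited raw UMI counts per gene and barcode, with no normalization. The submitters' notes name Cell Ranger 2.1.1 and the matrix header 3.0.2. For the hashtag library the authors deposited UMI counts per tag, made with CITE-seq-Count. The gene table held 142080194 UMIs in 13151 barcodes, of which 13141 were among the 13150 of the hashtag table. HTODemux in Seurat 5.3.0 called the hashtags, at a positive quantile of 0.99. Doublets within a mouse were not removed.

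UMIs were summed per hashtag and Nras class where a class held at least 10 cells, which gave sums of 4 classes in each of 2 mice. Because the hashtag marks the animal, it was the block. Genes with a mean of at least 2 CPM and at least 50 UMIs were tested with edgeR 4.0.16 (quasi-likelihood, TMM, 3 residual degrees of freedom, Benjamini-Hochberg over all 9934 genes), and DESeq2 1.42.0 was an alternative. Nras and mVenus were left out of tests and library sizes, and the genes that define a deep hepatocyte were not counted. Where 3 pairs of values are given without names, they are intermediate and high cells of mouse 1, mouse 2 and uncalled cells, in that order. Fold changes are fitted log2 values, and adjusted p-values are edgeR's unless named. With 2 mice, they rest on very few animals. Per-mouse log2 ratios used a prior count of 2. Poisson and binomial intervals cover counting error only.

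The classes, genes and lists were chosen with earlier results of these data known. Genes were named if called with at least 20 CPM in the higher class and the same direction in both mice. Of each of 26 lists up to 4 were picked, called genes first and then those of highest CPM, along with the study's panel. Most of the panel is printed above, but not all of the list picks are. Other named genes, among them those of the size rule and of DESeq2, were chosen after their values were seen. Gene positions are from GENCODE vM21 and promoters from RefSeq. The scripts were tested on simulated counts. The high against intermediate test recovered 22.7% of simulated 1.5-fold, 65.4% of 2-fold and 92.1% of 4-fold changes. A gene that did not pass may therefore still differ between the classes.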

Additional observations from a re-analysis of the deposited data

How the results depend on the processing

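The count of 4 genes between high and intermediate cells moved with nearly every choice. Median-of-ratios scaling gave 4 again. DESeq2 gave 28, no filter on low counts 253, a mean of at least 10 CPM 0, only the sums of the compared classes 60, a fixed hashtag rule (at least 10 tag UMIs, at least 80% from 1 tag) 51, cells thinned to 10000 UMIs 18, cells of at least 20000 UMIs 18, a mitochondrial share under 10% 29, classes set apart at 3500 and 1800 CPM 26, no cells rich in markers of other types 13, and uncalled cells as a further block 151. Without the replicate block, that is with the mouse left out of the model, 0 genes passed. Leaving out cells with such markers while not counting Ly6d, Ecm1 and Reln, chosen after seeing the data, gave 11. In each of these settings with calls, more genes were lower than higher. The test of the steps gave 0, but 68 without the filter and 1 with the fixed hashtag rule. Without either mouse no residual degrees of freedom were left, so no count was made. The cause of these shifts was not tested.

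Over 14 alternatives Ugt2b5 passed in 12, Cyp2e1 in 10, Hpgd in 9 and Hspa1b in 8, with log2 fold changes of −1.21 to −0.64, −2.59 to −1.67, −1.40 to −0.84 and −1.86 to −0.97 and adjusted p-values of up to 0.0990, 0.519, 0.332 and 0.640. Of 136 named or listed genes with a fit 57 took another sign in some alternative, none of them called, and 42 passed the threshold in an alternative only. The rule of size took 30 genes higher and 76 lower. Higher, it took 68 after thinning, 50 with classes set apart, 70 without the filter, 7 at 10 CPM or more and 82 without the uncalled cells. Lower, it took 132 with the fixed hashtag rule, 188 after thinning, 128 with a mitochondrial share under 10%, 127 with classes set apart, 117 without cells rich in other markers, 172 without the filter, 34 at 10 CPM or more and 170 without the uncalled cells. Without hashtag 1 or without hashtag 2 it took between 95 and 235 higher and between 261 and 297 lower. Depth limits genes near 2 CPM, where the 51 cells of mouse 1 hold few UMIs.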

Other observations

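Groups that the comparisons above did not describe gave the following values. Interferon response genes had 15 higher and 8 lower estimates among 23 tested (median 0.16), but the median was −0.22 in uncalled cells, and 0 passed. For MHC class I presentation the estimates were 10 higher and 4 lower among 14 (median 0.04), and all 15 listed genes summed to 5505 CPM in intermediate and 5461 CPM in high cells. Integrated and ER stress genes had 7 higher and 16 lower estimates among 23 (median −0.11), and none reached an unadjusted p under 0.05. Acute phase and iron genes had 5 higher and 15 lower estimates among 20 (median −0.15). Apoptosis and survival genes had 13 higher and 5 lower among 18 (median 0.08), and YAP targets 4 higher and 8 lower among 12 (median −0.11).

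Of 31 cell cycle genes only 13 had enough UMIs to be tested, with 5 higher and 8 lower estimates. All 31 together summed to 147 CPM in intermediate and 138 CPM in high cells. In none of these lists did a gene pass the test. The share of all UMIs from the rule's 5 hepatocyte genes was 5.73% in intermediate and 4.73% in high cells, which the choice of cells partly fixes.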
